A study of Homo sapiens with 6 samples.

Results

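Expression of 10 genes of the epidermal growth factor (EGF) family, 7 ligands and 3 ERBB receptors, was followed in SKOV3 cells, a human line established from an ovarian carcinoma and known for its amplified ERBB2 gene. The members were taken by gene symbol (TGFA, HBEGF, EREG, AREG, BTC, EPGN, NRG1, EGFR, ERBB2 and ERBB3) and are 10 of the 60664 genes of the count table. All 10 passed the filter on low counts, as did 15867 genes in all. In 3 cultures (shJUP 1 to 3, genotype labelled JUP knockdown) a short hairpin RNA targeted JUP, which encodes plakoglobin, found in both desmosomes and adherens junctions. The other 3 cultures (shNC 1 to 3, genotype labelled WT) carried the control hairpin. The labels state neither the hairpin sequence, nor whether a group stems from 1 clone, nor what a library number stands for. Copy number was not measured here. The members were chosen by family, with their measured differences in CPM between shJUP and shNC in view. Their differences between shJUP and shNC are therefore given as a description. Tests are given for other genes and for library numbers. The lists of other genes were also written with earlier results of these data known, so their tests are no independent support.

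ERBB receptors are tyrosine kinases that signal as dimers. Their ligands are made as membrane-anchored precursors, which metalloproteases of the ADAM family cut to release the soluble growth factor. TGFA, AREG and EPGN bind EGFR, HBEGF, EREG and BTC bind EGFR and ERBB4, and NRG1 binds ERBB3 and ERBB4. ERBB2 has no known ligand and acts as the preferred dimer partner, and ERBB3 has an impaired kinase. In epithelial cancers the ligands often act on the cells that make them.

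Library totals ranged from 17456121 to 19279514 estimated counts. JUP itself stood at 39.9, 93.6 and 24.6 CPM (counts scaled to a common library size by TMM, per 1000000 counts) in shJUP 1, 2 and 3, against 104, 133 and 101 CPM in shNC 1, 2 and 3, so JUP was least reduced in shJUP 2, with a ratio of 0.705 to the control of the same number. Its log2 fold change, shJUP over shNC, was -1.10 with a standard error (SE) of 0.44 and did not pass in edgeR (adjusted p = 0.47) or DESeq2 (0.18). With a block for library number JUP passed in DESeq2 (adjusted p = 0.047) and not in edgeR (0.12). Without both number-2 libraries its log2 fold change was -1.66 and passed in DESeq2 (adjusted p = 2.5e-10), with edgeR at 0.051. That setting leaves out the shJUP library in which JUP was least reduced, so a larger difference was bound to result. The libraries of number 2 stood apart in both groups, and their deviations from the group means correlated at 0.51 across genes. Of the markers of ovarian carcinoma and epithelium, 7 of 9 reached 1 CPM, led by KRT8 at up to 839 CPM, while MUC16 and CLDN3 stayed below. Leukocyte markers other than CD68 stayed below 1 CPM, and of the list for neural and embryonic kidney lines NEFL, NEFM, INA and STMN2 did so too. The fifth gene of that list, LHX1, stood at 24.2 to 56.6 CPM over shJUP libraries and 33.4 to 75.6 CPM over shNC libraries. Endothelial markers summed to 8.93 to 11.8 CPM over shJUP libraries and 6.69 to 11.6 CPM over shNC libraries, mostly KDR. The summed fibroblast markers, mostly COL1A1, ranged from 10.5 to 260 CPM over shJUP libraries and from 40.7 to 470 CPM over shNC libraries. Their part in the results was not tested. In bulk RNA, a change in the share of cells that express a gene and a change in RNA per cell cannot be told apart.

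The 4 ligands EPGN, EREG, AREG and BTC are neighbouring protein-coding genes on chromosome 4 in RefSeq (GRCh38.p14), and the first 3 of them had the largest differences among the members. The 250 bases before their RefSeq starts are shown with those of HBEGF, which had the next largest difference, because these genes were higher together in shJUP. Capitals mark matches on either strand to the motifs searched, which were a TATA box (TATAAA), a GC box (GGGCGG), an AP-1 site (TGANTCA), a TCF/LEF site (CTTTGAT), a STAT site (TTCNNNGAA), a TEAD site (GGAATG) and a cyclic AMP response element (TGACGTCA). The last of these was added after the sequences had been read. The windows are, in the order printed, chr4:74308220-74308469, chr4:74364895-74365144 and chr4:74444886-74445135 on the plus strand and chr5:140346604-140346853 on the minus strand.
EPGN: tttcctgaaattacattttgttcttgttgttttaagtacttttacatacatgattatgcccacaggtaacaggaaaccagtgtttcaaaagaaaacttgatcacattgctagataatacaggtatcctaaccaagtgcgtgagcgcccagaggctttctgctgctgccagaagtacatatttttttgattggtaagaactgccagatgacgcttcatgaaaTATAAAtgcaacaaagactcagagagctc
EREG: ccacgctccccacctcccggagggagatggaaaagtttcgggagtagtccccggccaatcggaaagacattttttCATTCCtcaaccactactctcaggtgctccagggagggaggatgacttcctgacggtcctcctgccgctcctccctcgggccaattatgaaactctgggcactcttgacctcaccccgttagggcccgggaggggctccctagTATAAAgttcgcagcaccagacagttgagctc
AREG: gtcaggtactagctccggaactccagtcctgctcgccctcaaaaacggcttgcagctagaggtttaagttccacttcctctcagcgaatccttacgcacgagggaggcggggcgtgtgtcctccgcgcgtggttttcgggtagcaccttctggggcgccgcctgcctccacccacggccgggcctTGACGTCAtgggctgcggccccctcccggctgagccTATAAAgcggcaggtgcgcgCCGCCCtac
HBEGF: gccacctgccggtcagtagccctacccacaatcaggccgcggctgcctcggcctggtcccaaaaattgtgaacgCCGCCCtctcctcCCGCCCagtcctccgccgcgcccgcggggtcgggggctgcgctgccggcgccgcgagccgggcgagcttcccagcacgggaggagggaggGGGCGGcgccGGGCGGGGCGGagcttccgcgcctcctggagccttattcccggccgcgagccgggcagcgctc

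A TATA box began 29 bases before the start in EPGN, 32 bases before it in EREG and 29 bases before it in AREG. Of all 35116 RefSeq windows of this length, 10.7% hold these letters somewhere. HBEGF held 5 GC boxes, of which the last 2 share a base, and AREG held 1, whereas 42.6% of all windows hold at least 1. AREG also held the cyclic AMP response element 65 bases before its start, which 1.6% of windows hold, and EREG held a TEAD site, which 11.9% hold. The AP-1 (6.6% of windows), TCF/LEF (2.3%) and STAT (6.6%) letters were not in these 4 windows. Of the windows of the other members in the table, one of those of TGFA held 3 GC boxes and that of BTC held none of the 7 motifs. One window of EGFR held 2 GC boxes, and its other window held 2 AP-1 sites, 2 TATA boxes and 1 TEAD site. The window of ERBB2 held 1 AP-1 site. A match describes the letters of the window and is no evidence that a factor binds there.

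TGFA (ENSG00000163235), the ligand with the highest level per length in either group, was higher in shJUP with little spread. It stood at 153, 163 and 164 CPM in shJUP 1, 2 and 3, against 96.3, 103 and 108 CPM in shNC 1, 2 and 3. The groups did not overlap, and the replicates of each lay close together (160.3 ± 6.2 against 102 ± 5.6 CPM, SD, n = 3 each). The log2 fold change, shJUP over shNC, was 0.65 with an SE of 0.10. Within library numbers the ratio was nearly constant: number 1 gave 1.59 (1.5 to 1.69, a 95% interval for counting error only), number 2 gave 1.59 (1.5 to 1.69) and number 3 gave 1.53 (1.44 to 1.62). JUP was least reduced in number 2 (ratio 0.705) and most in number 3 (0.243). Any link between the TGFA ratio and the JUP ratio was not tested.

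HBEGF (ENSG00000113070) encodes the heparin-binding ligand that also serves as the receptor of diphtheria toxin. It was at 26.2, 16.3 and 26.9 CPM in shJUP 1, 2 and 3, against 8.95, 8.29 and 10.1 CPM in shNC 1, 2 and 3. Each shJUP library lay above each control, with shJUP 2 the lowest of the 3. The means were 23.1 ± 5.9 against 9.10 ± 0.90 CPM (SD, n = 3 each) and the log2 fold change was 1.34 (SE 0.22). The ratios within numbers were 2.92 (2.44 to 3.49), 1.97 (1.62 to 2.39) and 2.67 (2.26 to 3.16) for numbers 1, 2 and 3.

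**Figure D1:**
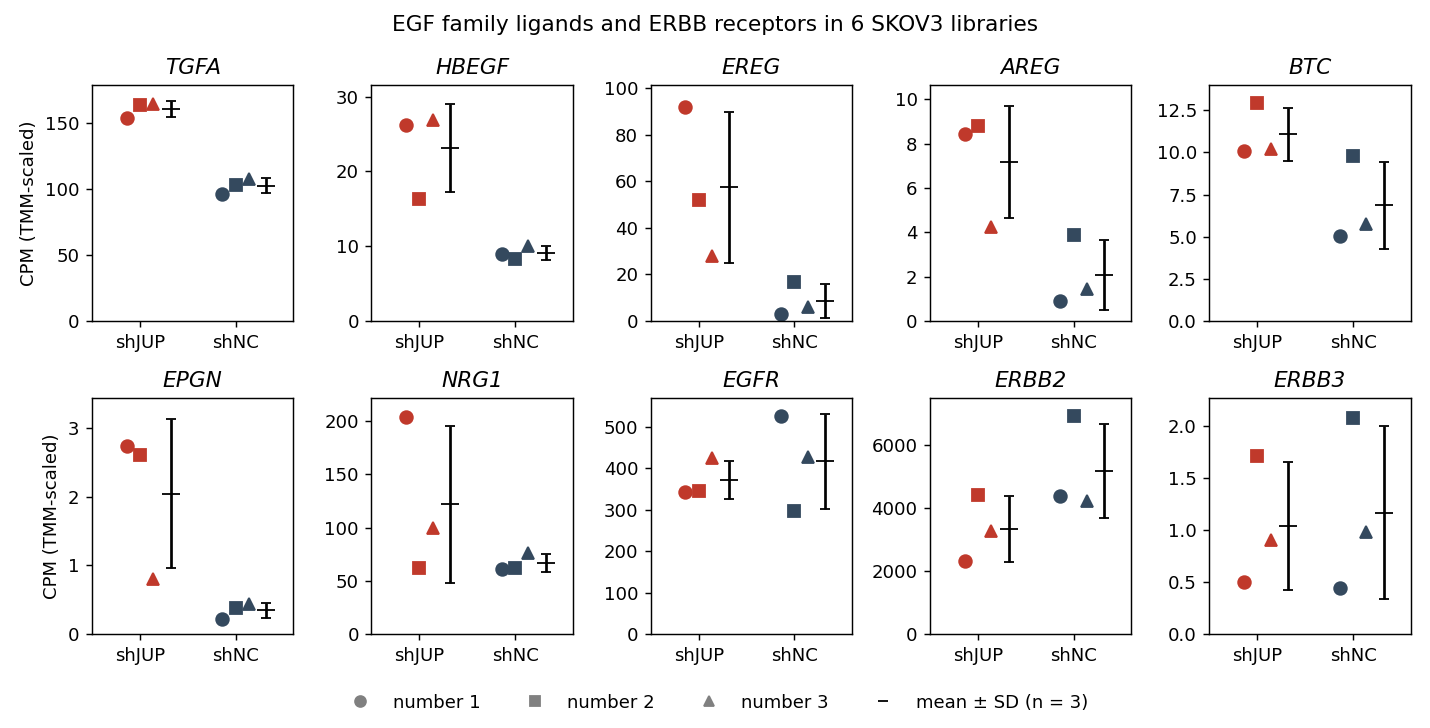
CPM (TMM-scaled, linear axes from 0) of the 10 members in each library, with shJUP left of shNC, symbols for the library number and the mean ± SD (n = 3) beside each group. For TGFA, HBEGF, EREG, AREG, BTC and EPGN every shJUP library lies above every control, whereas NRG1 is high mainly in shJUP 1 and the receptors overlap between groups.

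EREG (ENSG00000124882), the epiregulin gene, had the largest difference among the members. It stood at 92.0, 52.2 and 27.9 CPM in shJUP 1, 2 and 3, against 2.87, 16.8 and 5.93 CPM in shNC 1, 2 and 3. The lowest shJUP library lay above the highest control, but the 3 shJUP libraries themselves lay far apart. The means were 57.4 ± 32.4 against 8.55 ± 7.3 CPM (SD, n = 3 each). The log2 fold change was 2.74 (SE 0.68), and 3.77 without both number-2 libraries. Number 1 gave a ratio of 32 (24.3 to 42.2), number 2 one of 3.10 (2.73 to 3.52) and number 3 one of 4.70 (3.82 to 5.78), so the number-1 pair differed from the control far more than the other pairs. The low level of shNC 1, at 52 counts, and the high level of shJUP 1, at 1649 counts, both enter that ratio.

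AREG (ENSG00000109321), which encodes amphiregulin, showed a like order at a lower level. Its values were 8.42, 8.80 and 4.25 CPM in shJUP 1, 2 and 3, against 0.884, 3.88 and 1.47 CPM in shNC 1, 2 and 3. The groups did not overlap, but shJUP 3 and shNC 2 lay close to each other. The means were 7.16 ± 2.5 against 2.08 ± 1.6 CPM (SD, n = 3 each) and the log2 fold change was 1.78 (SE 0.56), or 2.43 without both number-2 libraries. The ratios were 9.53 (5.69 to 15.9), 2.27 (1.72 to 2.99) and 2.89 (1.87 to 4.47) for numbers 1, 2 and 3. As for EREG, number 1 had the highest ratio and number 2 the lowest.

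EPGN (ENSG00000182585), the epigen gene, was near the limit of detection in the controls. It had 48.8, 49 and 15.0 counts in shJUP 1, 2 and 3, against 4, 7 and 8 counts in shNC 1, 2 and 3. In CPM these were 2.05 ± 1.1 against 0.343 ± 0.11 (SD, n = 3 each), with a log2 fold change of 2.55 (SE 0.57). The ratio was 12.4 (4.46 to 34.3) for number 1 and 7.03 (3.18 to 15.5) for number 2. For number 3 it was 1.83, and its counting interval (0.776 to 4.32), which covers counting error only, includes 1.

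BTC (ENSG00000174808), the betacellulin gene, was at 10.1, 12.9 and 10.2 CPM in shJUP 1, 2 and 3, against 5.03, 9.77 and 5.77 CPM in shNC 1, 2 and 3. The groups did not overlap, yet shNC 2 lay just below the lowest shJUP library. The means were 11.1 ± 1.6 against 6.86 ± 2.6 CPM (SD, n = 3 each), and the log2 fold change was 0.69 (SE 0.28). The ratios within numbers were 2.01, 1.32 and 1.77 for numbers 1, 2 and 3.

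NRG1 (ENSG00000157168), the ligand of ERBB3 and ERBB4 among the members, did not follow this order. It stood at 204, 61.6 and 100 CPM in shJUP 1, 2 and 3, against 61.4, 61.9 and 76.0 CPM in shNC 1, 2 and 3. Only shJUP 1 was far above the controls, and shJUP 2 lay among them. The log2 fold change of 0.87 (SE 0.39) became 0.29 without shJUP 1. Number 1 gave a ratio of 3.32 (3.10 to 3.55), number 2 one of 0.995 (0.917 to 1.08) and number 3 one of 1.32 (1.23 to 1.41).

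**Figure D2:**
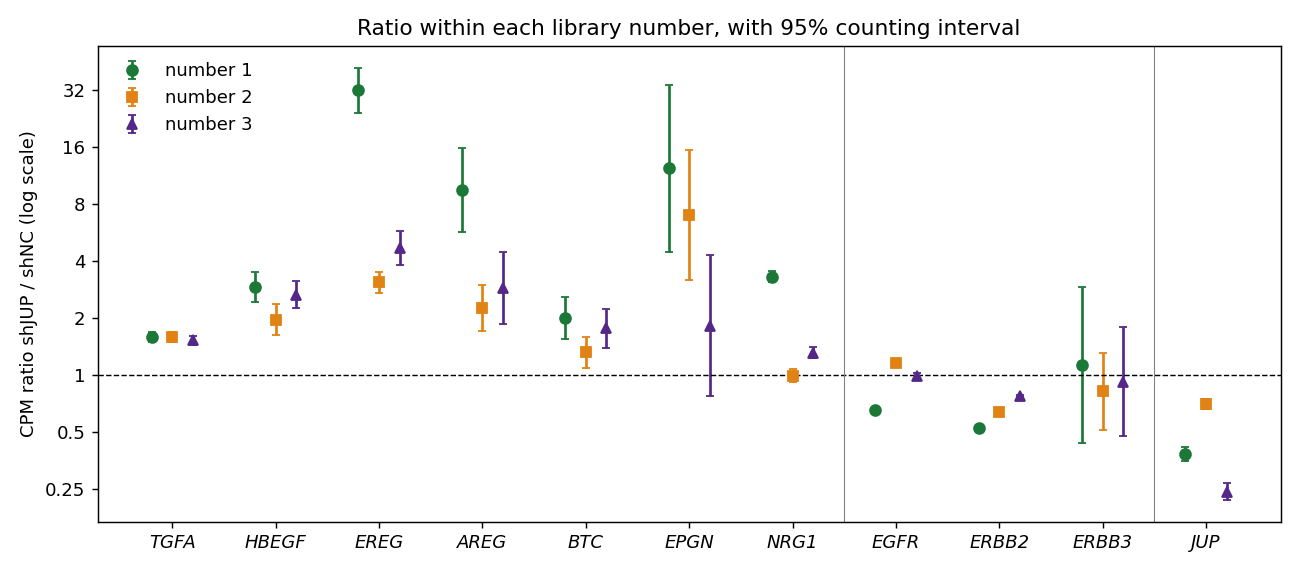
Ratio of CPM in shJUP to CPM in shNC within each library number (log axis), with 95% counting intervals that cover counting error only, for the ligands, the receptors and, at the right, JUP. TGFA has ratios of 1.53 to 1.59 in all 3 numbers, EREG ranges from 3.10 to 32, and all 3 ERBB2 ratios lie below 1.

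The receptors overlapped between the groups. ERBB2 (ENSG00000141736) stood at 2320, 4422 and 3271 CPM in shJUP 1, 2 and 3, against 4393, 6907 and 4224 CPM in shNC 1, 2 and 3. Only shJUP 2 reached the range of the controls, and it lay below the control of its own number. The means were 3338 ± 1053 against 5175 ± 1503 CPM (SD, n = 3 each), with a log2 fold change of -0.63 (SE 0.28). The ratio was 0.528 for number 1, 0.640 for number 2 and 0.774 for number 3. Exons of ERBB2 share 571 bases with MIEN1 and 194 bases with PGAP3 on the opposite strand in GENCODE 29. No source used here gives the strand setting, and without strand such reads cannot be assigned to one gene.

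EGFR (ENSG00000146648), the receptor of most of these ligands, was at 343, 346 and 424 CPM in shJUP 1, 2 and 3, against 524, 296 and 427 CPM in shNC 1, 2 and 3. The groups overlapped, with the highest and the lowest value both among the controls. The log2 fold change was -0.17 (SE 0.21), and it was 0.04 without shNC 1. ERBB3 (ENSG00000065361) was barely expressed, with 9.09 to 32 counts per shJUP library and 8 to 39 counts per shNC library (log2 fold change -0.17, SE 0.64), and its sign changed without shJUP 1 or shNC 2. The ratios of ERBB3 within numbers all had counting intervals that include 1, which cover counting error only and are no test between the groups.

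Of the 10 members, 6 had all shJUP libraries above all controls, which 8.39% of the tested genes showed, and none had them all below, which 8.65% showed. The same 6 were higher in all 3 same-number pairs, as were 21.3% of tested genes. All 7 ligands had a log2 fold change above 0 (median 1.34) and all 3 receptors one below 0 (median -0.17), with a median of -0.01 over all tested genes. The choice of members used this comparison, so nothing is read from these counts. For the same reason no test of this comparison is given for single members.

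Over all 15867 tested genes, the edgeR quasi-likelihood test of shJUP against shNC called 0 at an adjusted p of 0.05 (0.0%), limma-voom 0 (0.0%) and DESeq2 200 (1.26%), of which 107 were higher (0.674%) and 93 lower (0.586%). DESeq2 without the block gave an adjusted p to 13691 genes, EPGN, ERBB3 and NRG4 not among them. Its shares are over all 15867. At an unadjusted p under 0.05 the edgeR test held 821 higher genes (5.17%) and 773 lower ones (4.87%). A block for library number gave 1 call in edgeR (0.0063%) and 692 in DESeq2 (4.36%), of which 306 were higher (1.93%) and 386 lower (2.43%). Without both number-2 libraries edgeR called 49 genes (0.308%) and DESeq2 673 (4.23%).

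The other family genes had few counts. ERBB4 had 1, 116 and 36 counts in shJUP 1, 2 and 3, against 118, 85 and 84 counts in shNC 1, 2 and 3. It was near 0 in shJUP 1 alone, and the difference did not pass the edgeR test (log2 -0.93, SE 0.96, adjusted p = 0.76). NRG4, a ligand of ERBB4, was at 0.837 ± 0.52 against 0.850 ± 0.077 CPM (SD, n = 3 each; log2 -0.03, SE 0.49). EGF had 5, 17 and 2 counts in shJUP 1, 2 and 3, against 0, 5 and 1 counts in shNC 1, 2 and 3. EGF, NRG2 (3 to 9 counts per library) and NRG3 were not tested. NRG3 had 0 counts in every library, which allows a level of up to 0.172 CPM in the shallowest (3 counts, counting error only).

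Levels were compared between members as CPM per kilobase of exon, with exon lengths from GENCODE 29. ERBB2 was far above the rest, at 323 ± 102 in shJUP and 501 ± 146 in shNC (SD, n = 3 each). In shNC the order below it was EGFR (33.2 ± 9.2), TGFA (20.6 ± 1.1), NRG1 (5.87 ± 0.73), HBEGF (3.02 ± 0.30), BTC (2.44 ± 0.91), EREG (1.5 ± 1.3), AREG (1.26 ± 0.96), EPGN (0.189 ± 0.061) and ERBB3 (0.129 ± 0.092). HBEGF, BTC, EREG and AREG overlapped with their neighbours in that order, as did EPGN and ERBB3, and the other neighbours did not. In shJUP, TGFA (32.3 ± 1.2) lay beside EGFR (29.6 ± 3.7), and EREG reached 10.03 ± 5.7, close to NRG1 at 10.8 ± 6.5. HBEGF was at 7.66 ± 2.0, AREG at 4.34 ± 1.5, BTC at 3.93 ± 0.57 and EPGN at 1.13 ± 0.60 per kilobase in shJUP.

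Genes on either side of the ligand cluster were looked up by position after the values of the ligands had been seen. MTHFD2L, a mitochondrial folate enzyme next to EPGN, differed by less than its error (18.9 ± 1.1 in shJUP against 18.7 ± 0.79 CPM in shNC, SD, n = 3 each; log2 0.01, SE 0.12). PARM1, next to BTC, had a log2 fold change of 0.29 (SE 0.76) and the chemokine gene CXCL2 one of 0.48 (SE 0.49). RCHY1, a ubiquitin ligase, was at 26.6 ± 1.3 in shJUP against 14.6 ± 5.1 CPM in shNC with no overlap (log2 0.86, SE 0.24, edgeR adjusted p = 0.40). Of these 4 genes, none passed the edgeR test and 1 had an unadjusted p under 0.05 (RCHY1, 0.0073 by edgeR). DESeq2 called none without the block and CXCL2 and RCHY1 as higher with it, and RCHY1 also passed in edgeR without both number-2 libraries (adjusted p = 0.042).

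Around ERBB2 on chromosome 17 the 6 tested neighbouring genes, also looked up afterwards, had log2 fold changes below 0 as well. Its neighbours PNMT (4, 10 and 11 counts in shJUP 1, 2 and 3, against 8, 17 and 7 in shNC) and ZPBP2 (0 counts) were not tested. MIEN1 stood at 1222, 2393 and 1649 CPM in shJUP 1, 2 and 3, against 2270, 3697 and 2109 CPM in shNC 1, 2 and 3. The lowest library was shJUP 1 and the highest shNC 2, as for ERBB2, with which MIEN1 shares exon bases. STARD3, a cholesterol transfer protein gene with no such overlap found, stood at 209, 395 and 270 CPM in shJUP 1, 2 and 3, against 356, 509 and 323 CPM in shNC 1, 2 and 3. The ratios within numbers 1, 2 and 3 were 0.528, 0.640 and 0.774 for ERBB2, 0.538, 0.647 and 0.782 for MIEN1, 0.586, 0.776 and 0.835 for STARD3 and 0.484, 0.583 and 0.756 for GRB7, an adaptor that binds ERBB receptors. Log2 fold changes were -0.62 (SE 0.30) for MIEN1, -0.44 (SE 0.26) for STARD3, -0.65 (SE 0.20) for PGAP3, -1.21 (SE 0.42) for the lowly expressed TCAP, -0.76 (SE 0.62) for GRB7 and -0.31 (SE 0.42) for IKZF3. None of these 6 passed the edgeR test (adjusted p = 0.42 to 0.82), TCAP and PGAP3 had an unadjusted p under 0.05, and DESeq2 called none without the block. DESeq2 with the block called STARD3, PGAP3, MIEN1 and GRB7 as lower in shJUP, as it did 2.43% of all tested genes.

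**Figure D3:**
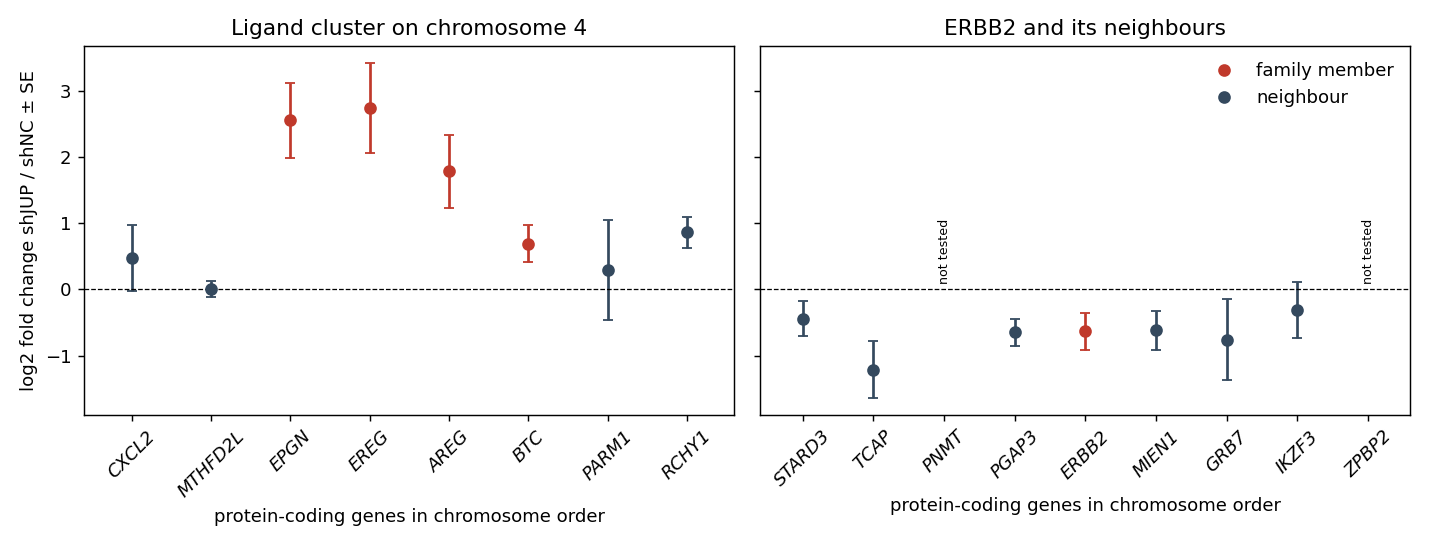
Log2 fold change, shJUP over shNC, ± SE from the edgeR fit for protein-coding genes in chromosome order around the ligand cluster on chromosome 4 (left) and around ERBB2 (right), with family members in red. EPGN, EREG and AREG stand at 1.78 to 2.74 beside MTHFD2L at 0.01, while ERBB2 at -0.63 lies among tested neighbours between -1.21 and -0.31. PNMT and ZPBP2 were not tested.

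Differences between library numbers were tested in a model with group and number, a comparison that the choice of members did not use. The edgeR test called 100 of 15867 genes between numbers (0.630%), and none of the 10 members. At an unadjusted p under 0.05 it held 3355 genes (21.1%), among them BTC, ERBB2 and ERBB3. By DESeq2's likelihood-ratio test 1047 genes passed (6.60%), including ERBB2 (DESeq2 adjusted p = 1.8e-04, edgeR 0.12). The number-2 library was the highest of its group in both groups for AREG, BTC, ERBB2 and ERBB3, or 4 of 10 members, against 25.8% of all tested genes. GRB7 passed the edgeR test between numbers (adjusted p = 0.033), at 63.5 CPM in shJUP 2 against 18.2 and 22.8 CPM in shJUP 1 and 3, and at 109 CPM in shNC 2 against 37.6 and 30.2 CPM in shNC 1 and 3. The count of 100 fell to 3 without shNC 2, 6 without shJUP 2, 6 without shJUP 3 and 9 without shNC 3, and was 217 without shJUP 1.

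Beyond the family, 85 other pathway genes were read in 6 lists, from shedding enzymes to target genes, written with earlier results of these data known. The edgeR test between shJUP and shNC called 0 of the 86 tested genes of these lists and the other family members together, limma-voom 0 and DESeq2 3, and 7 had an unadjusted p under 0.05 by edgeR, 4 higher and 3 lower. Of the 10 genes of shedding and trafficking, 4 had a log2 fold change above 0 and 6 below (median -0.11). DESeq2 called 1 of them, ADAM10, as lower, and none as higher. ADAM10, a sheddase of ERBB ligands, was at 264, 295 and 188 CPM in shJUP 1, 2 and 3, against 415, 372 and 408 CPM in shNC 1, 2 and 3. The groups did not overlap (log2 -0.68, SE 0.17, adjusted p = 0.032 by DESeq2 and 0.40 by edgeR). ADAM17, the main sheddase of TGFA in mouse cells, was at 66.3 ± 13 against 82.1 ± 2.9 CPM (SD, n = 3 each; log2 -0.31, SE 0.15) and did not pass in either test. The other genes named by rule were TIMP3, an inhibitor of metalloproteases (log2 0.95, SE 0.49), ADAM19 (-0.42, SE 0.20) and CNIH1 (0.11, SE 0.12).

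Of 14 genes of receptor feedback and turnover, 8 lay above 0 and 6 below (median 0.09), and DESeq2 called 1, CBLB, as lower. CBLB, a ubiquitin ligase that targets activated receptors, was at 19.1, 26.8 and 20.3 CPM in shJUP 1, 2 and 3, against 40.8, 46.3 and 30.3 CPM in shNC 1, 2 and 3. All shJUP libraries lay below all controls (log2 -0.83, SE 0.20, adjusted p = 0.031 by DESeq2 and 0.39 by edgeR). UBASH3B, a phosphatase that binds CBL proteins, was at 97.5 ± 16 against 65.0 ± 9.0 CPM (SD, n = 3 each; log2 0.59, SE 0.16) and passed in DESeq2 with the block alone among the tests between all shJUP and shNC libraries (adjusted p = 3.2e-04). ERRFI1, an inhibitor of the EGFR kinase, had a log2 fold change of 0.60 (SE 0.26) and SOCS4 one of -0.27 (SE 0.16).

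Co-receptors and partners numbered 10, of which 5 lay above 0 and 5 below (median 0.10), and DESeq2 called AXL as higher. AXL, a receptor tyrosine kinase that can pair with EGFR, had a log2 fold change of 1.36 (SE 0.28, adjusted p = 5.3e-04 by DESeq2 and 0.33 by edgeR). CD44 (0.24, SE 0.10), MUC1 (-0.80, SE 0.41) and ITGB4 (-0.24, SE 0.32) did not pass in any of these tests. The 26 adaptors and kinases were nearly level, between -0.38 and 0.41, with 12 above 0 and 14 below (median -0.03) and none called by DESeq2. AKT1 was at 179.6 ± 4.9 against 139 ± 19 CPM (SD, n = 3 each; log2 0.37, SE 0.12) and passed in DESeq2 with the block (adjusted p = 0.044). AKT2 (-0.24, SE 0.11), PTPN11 (0.25, SE 0.12) and PIK3CA (-0.30, SE 0.13) passed in none.

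The 11 ERK feedback genes had a median log2 fold change of -0.01, with 5 above 0 and 6 below. With all 6 libraries, DESeq2 called none of them between the groups, with or without the block. Among them were DUSP5 (0.66, SE 0.30), SPRY4 (0.46, SE 0.23), SPRED1 (-0.21, SE 0.15) and SPRY1 (-0.99, SE 0.74). Without both number-2 libraries DUSP5 passed in DESeq2 (log2 1.13, adjusted p = 0.0011). It was among 9 pathway genes that passed there, 7 higher and 2 lower, where 4.23% of all tested genes passed. Of the 13 tested ERK target genes 6 lay above 0 and 7 below (median 0.00), and DESeq2 called none without the block. FOSL1, a subunit of AP-1, was at 137, 85.5 and 206 CPM in shJUP 1, 2 and 3, against 65.6, 55.5 and 90.3 CPM in shNC 1, 2 and 3. The groups overlapped between shJUP 2 and shNC 3, while each shJUP library lay above its own number (log2 1.02, SE 0.32). Its adjusted p was 0.42 in edgeR and 1.5e-07 in DESeq2 with the block. MMP1, a collagenase gene, had a log2 fold change of -1.25 (SE 0.52). Its groups overlapped, with shJUP 2 at 867 CPM above shNC 1 at 671 CPM, while each shJUP library lay below its own number. In edgeR its adjusted p was 0.49, or 0.074 when library number was in the model. The DESeq2 values were 0.49 for the plain fit and 1.1e-15 for the blocked fit. PLAUR (0.22, SE 0.14) and ETV5 (-0.28, SE 0.28) passed in none.

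FOS and EGR1, immediate early targets of ERK, separated the library numbers rather than the groups. FOS stood at 48.3, 297 and 159 CPM in shJUP 1, 2 and 3, against 48.8, 570 and 168 CPM in shNC 1, 2 and 3. The number-2 library was the highest and number 1 the lowest in each group. FOS (edgeR adjusted p = 0.033) and EGR1 (0.044 by edgeR) were the 2 of 86 pathway genes that edgeR called between numbers, against 0.630% of all tested genes. DESeq2's likelihood-ratio test called 12 of them, against 6.60% of all tested genes. These included MMP1 (DESeq2 adjusted p = 2.1e-14), FOSL1 (8.4e-05) and AXL (4.1e-04). Between shJUP and shNC the log2 fold changes were -0.64 (SE 0.89) for FOS and -0.40 (SE 0.76) for EGR1.

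**Figure D4:**
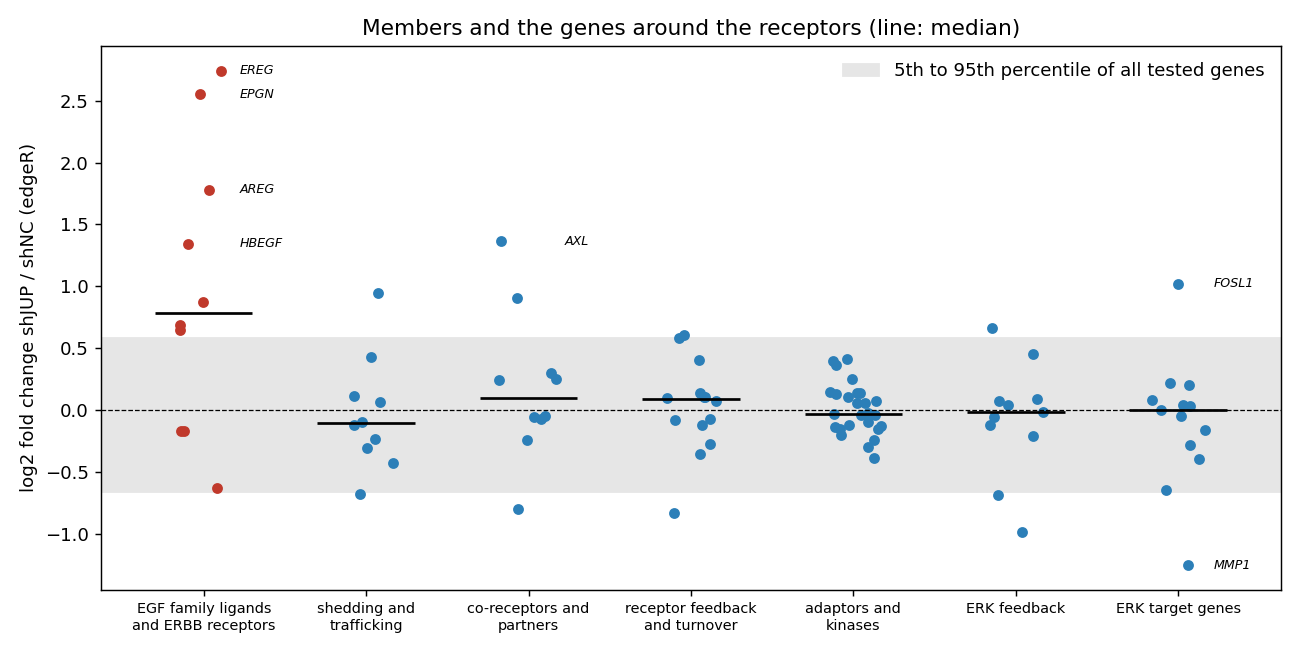
Log2 fold change, shJUP over shNC, from the edgeR fit for the 10 members (red) and the tested genes of 6 pathway lists (blue), with the median of each list as a line and the 5th to 95th percentile of all tested genes (-0.66 to 0.58) in grey. The 7 ligands, chosen with this difference in view, lie between 0.65 and 2.74, and the pathway genes range from -1.25 for MMP1 to 1.36 for AXL.

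Profiles over the 6 libraries were compared for the 3 members with the largest differences, by Euclidean distance between centred log2 CPM values among 11363 genes of at least 5 CPM. The nearest to EREG were EPB41L3 (distance 1.71), the long non-coding RNA UCA1 (1.92) and GABRA3 (2.02). The nearest to AREG were UCA1 (0.954), ELOVL6 (1.18) and MZT1 (1.23). The nearest to EPGN were PIK3AP1 (1.09), SPANXA1 (1.20), whose near-identical copy SPANXA2 can share its reads, and SCEL (1.52). Among the members themselves, the closest pair was TGFA and BTC (0.734), followed by TGFA and HBEGF (1.02), and EREG and AREG were 1.46 apart. The distance depends on the size of the changes as well as on their direction. TGFA and EGFR, whose log2 fold changes differ in sign, were 1.18 apart. The group difference that was in view when the members were chosen also enters these profiles.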

How the data were processed

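RNA of 6 SKOV3 cultures was sequenced after oligo(dT) enrichment on a DNBSEQ instrument, per the labels' protocols, from independent biological replicates. The deposited table holds expected counts, which are estimated reads for each Ensembl gene without any scaling. The tools named in the submitters' processing notes, without roles, are STAR (2.7.9a), RSEM (1.3.3), edgeR (3.32.1) and DESeq2 (1.26.0). The FPKM values that the labels mention were not used here. For the genome build, annotation and strand: not given in the sources used here. Of 60695 rows, 31 that held no gene ID were dropped, and 60463 of the remaining 60664 IDs matched a symbol. Expected counts were rounded to whole numbers.

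The main fit was edgeR 4.0.16 in R 4.3.3 (filterByExpr, TMM, quasi-likelihood test, two-sided, Benjamini-Hochberg over 15867 genes, threshold 0.05), on all 6 libraries. Each SE is the size of the log2 fold change divided by the root of its F statistic. DESeq2 1.42.0 was run on the same filtered genes, and limma-voom with limma 3.58.1. A second edgeR fit tested the library number beside the group. Steps were tested on simulated data. Same-numbered libraries deviated from the group means together (correlations 0.14, 0.51 and 0.20 for numbers 1, 2 and 3), each over the 0.1 set for pairing, so the numbers were treated as pairs in the blocked fits. Numbers 1 and 3 were not told apart by this: shJUP 3 correlated at 0.39 with shNC 1, and shJUP 1 at 0.15 with shNC 3. Counting intervals (95%) and the floor of 3 counts cover counting error only. Promoter windows are RefSeq sequences (GRCh38.p14), read for 8 of the 10 members. Windows on chromosome 8, which holds NRG1, were left out, and no window of ERBB3 was found. The members and lists were chosen with earlier results of these data known. Named were all members, the other family genes, JUP, the 2 higher and 2 lower genes of each list with the smallest p, and the 3 nearest profiles. ADAM17, FOS, EGR1 and the chromosome neighbours were added after their values were seen.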

Additional observations from a re-analysis of the deposited data

How the results depend on the processing

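The 10 members were refitted under up to 16 other settings (scaling, filter, tool, block, libraries left out). The 7 ligands stayed above 0 and ERBB2 below 0 in every one that gave a value. For the 6 ligands without overlap between the groups, leaving libraries out could hardly change the sign. The members were chosen with this difference in view, so nothing is read from the signs. The log2 fold change ranged from 0.61 to 0.69 for TGFA, 1.22 to 1.54 for HBEGF, 2.23 to 3.77 for EREG, 1.42 to 2.60 for AREG, 0.51 to 1.03 for BTC, 2.29 to 2.94 for EPGN, 0.29 to 1.19 for NRG1 and -0.89 to -0.37 for ERBB2. EGFR (-0.36 to 0.04) changed sign without shNC 1 and ERBB3 (-0.72 to 0.54) without shJUP 1 or shNC 2. Another scaling moved the median of all genes by less than 0.1.

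The count of genes called between shJUP and shNC, 0 in the main edgeR fit, was 5 without the filter, 200 with DESeq2, 1 with the replicate block, 692 with the replicate block in DESeq2, 49 without both number-2 libraries and 673 without them in DESeq2. It was 0 with each library left out in turn. Among pathway genes the count of 0 became 3 with DESeq2 and 7 with the replicate block in DESeq2. Without both number-2 libraries it was 1 in edgeR and 9 in DESeq2 (7 higher and 2 lower). It was 0 with the replicate block in edgeR and with each library left out. Between library numbers the count of 100 became 470 without the filter and 1047 with DESeq2, and ranged from 3 to 217 with 1 library left out, where a number with 1 library is assumed to vary like the others. The cause was not tested. Low counts limit EPGN, ERBB3, EGF and NRG2.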
